A study of Mus musculus with 32 samples.

Results

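Interferon-gamma induced GTPases are large GTP-binding proteins that cells make in quantity when interferon-gamma reaches them. Interferon-gamma, secreted mainly by T cells and NK cells, binds a receptor made of IFNGR1 and IFNGR2 chains and switches on genes whose promoters carry GAS elements, among them the gene for IRF1, a factor that binds ISRE elements. The guanylate-binding proteins (GBPs) coat and break open the vacuoles of intracellular pathogens and help to activate inflammasomes, and the immunity-related GTPases (IRGs) act on the same vacuoles, with IRGM1, IRGM2 and IGTP (IRGM3) serving as regulators of the other IRGs and of autophagy. In tumors these transcripts are widely read as a trace of interferon-gamma signaling.

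Members were the rows of the gene count table with the symbol Gbp2, Gbp3, Gbp4, Gbp5, Gbp6, Gbp7, Igtp, Irgm1, Irgm2 or Iigp1. A row was found for 9 of the 10 members among 39676 genes, and Iigp1 was not analysed here. All 9 passed the filter on low counts in every comparison.

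RNA was sequenced from whole tumors of 32 female mice aged 8 to 10 weeks, harvested on day 10 after inoculation, with 8 mice in each of 4 groups. AB1 and AE17 are mesothelioma cell lines raised by asbestos exposure in BALB/c and C57BL/6 mice, and each was returned to its own strain. AB1 IPL and AB1 SC mice were BALB/c and received 500000 AB1 cells, in 200 µL into the pleural cavity (intrapleural, IPL) or in 100 µL under the skin (subcutaneous, SC). AE17 IPL and AE17 SC mice were C57BL/6 and received 1000000 AE17 cells in the same volumes and sites. Each model is 1 cell line in 1 strain, so that cell line, strain and cell number cannot be told apart, and the tumors hold host cells beside the cancer cells.

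Total counts per mouse lay between 15432258 and 20649645, and the 9 GTPase genes together took between 0.0879% and 0.524% of them. The lowest count of any member in any mouse was 680, for Gbp5, far above the 3 counts taken as the smallest detectable number, which corresponded to at most 0.19 CPM (counts per 1000000 of the library total). CPM values were also corrected by TMM factors. The sequencing lane, as named in the column headers, was partly tied to the groups. All 8 AB1 IPL libraries were on lane 3, AB1 SC libraries were on lane 3 (replicates 1 and 2) and lane 2 (6 mice), AE17 IPL libraries were on lane 2 (5 mice) and lane 1 (3 mice), and all 8 AE17 SC libraries were on lane 1. AB1 IPL replicates 2 and 4 correlated least with the rest of their group, and AE17 IPL replicates 5 and 8 had B cell markers above the others of theirs. These 4 libraries, chosen after the data were seen, are those said below to stand apart. By median correlation with their group, AE17 IPL replicates 5 and 8 (0.9681 and 0.9686) were close to replicate 1 (0.9689). AE17 SC replicate 1 (0.9631) was lower and is not among the 4. Markers of mesothelium summed to between 76.1 and 284 CPM over the 4 groups, with 1 of 6 at 0 in every AB1 SC mouse, T cell markers to between 23.8 and 250 CPM and macrophage markers to between 1318 and 2810 CPM.

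The member genes sit on 3 chromosomes (GRCm38, GENCODE M21). On chromosome 3 and the plus strand lie Gbp5 (ENSMUSG00000105504.4, 142493978 to 142522344), Gbp7 (ENSMUSG00000040253.15, 142530342 to 142550149), Gbp3 (ENSMUSG00000028268.14, 142560026 to 142573209) and Gbp2 (ENSMUSG00000028270.12, 142620602 to 142638008). On chromosome 5 and the minus strand lie Gbp4 (ENSMUSG00000079363.7, 105115767 to 105139586) and Gbp6 (ENSMUSG00000104713.4, 105270702 to 105293698). On chromosome 11 lie Irgm1 (ENSMUSG00000046879.7, 48861968 to 48871683, minus strand), Igtp (ENSMUSG00000078853.8, 58199556 to 58207591, plus strand) and Irgm2 (ENSMUSG00000069874.7, 58199618 to 58222782, plus strand). These genes are near copies in part, and reads of 50 bases cannot always be placed. Of the 50-base stretches of Gbp6 transcripts, 70.7% also occur in another gene, mostly Gm43302, so that its counts are uncertain. The share was 12.7% for Gbp7, 11.8% for Igtp, 7.77% for Irgm2 and 7.7% for Gbp4, and at most 3.75% for the other 4.

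RefSeq promoter windows (GRCm38.p6) were matched for 7 of the 9 members, with 8 windows in all. In the 250 bases before the start, searched on both strands, the ISRE letters GAAANNGAAA stood in 7 of 8 windows and the GAS letters TTCNNNGAA in 4 of 8, against 2.98% and 7.02% of 32851 mouse promoters of the same length. Both motifs stood together in 4 of 8 windows, those of Gbp5, Gbp7, Igtp and Irgm2, against 0.332% of all promoters. Overlapping ISRE matches stood in Gbp3 and in Irgm1. The second window of Gbp3 held neither motif. The windows are shown for Gbp7, Igtp and Irgm2, which hold both motifs and no annotated exon, as the 120 bases ending just before the RefSeq start (Gbp7 at chr3:142530216-142530335, Igtp at chr11:58199436-58199555, Irgm2 at chr11:58214857-58214976, all on the plus strand). Capitals mark GAS and ISRE letters on either strand.
Gbp7: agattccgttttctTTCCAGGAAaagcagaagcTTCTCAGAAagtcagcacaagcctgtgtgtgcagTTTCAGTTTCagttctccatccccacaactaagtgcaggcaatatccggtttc
Igtp: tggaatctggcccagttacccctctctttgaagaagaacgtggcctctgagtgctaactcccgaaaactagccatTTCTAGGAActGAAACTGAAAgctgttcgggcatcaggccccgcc
Irgm2: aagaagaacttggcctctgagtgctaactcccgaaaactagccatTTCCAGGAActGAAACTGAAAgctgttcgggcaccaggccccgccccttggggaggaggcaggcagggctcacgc
In Igtp the GAS letters began 45 bases and the ISRE letters 34 bases before the start, and in Irgm2 they began 75 and 64 bases before it, so that the spacing was 11 bases in both. Aligned on the GAS letters, the shown stretches of Igtp and Irgm2 had 87 of 90 bases identical (96.7%). In Gbp7 the GAS letters began 106 and 87 bases before the start, and the ISRE letters, which read on the opposite strand, began 53 bases before it. A match of letters is a description of the sequence and not a measured binding site.

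The first comparison asked how the site of growth related to the members in the AB1 model. Each of the 6 GBP genes was lower in pleural than in subcutaneous AB1 tumors, by between 2.16-fold (Gbp6) and 2.75-fold (Gbp5). The IRG genes had smaller fold changes. Igtp was 1.59-fold and Irgm1 1.58-fold lower, and Irgm2 did not pass the test. In all, 8 of 9 members were lower at an adjusted p under 0.05 in edgeR's quasi-likelihood test, with a median log2 fold change of -1.21 over the 9. Of all 14645 genes tested, 10.7% were lower at this threshold, and the median log2 fold change was -0.00225. At an adjusted p under 0.01, 4 of 9 members were called, against 13% of all genes in either direction.

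Gbp5, which promotes assembly of the NLRP3 inflammasome, had the largest change. It lay between 35.5 and 119 CPM in AB1 IPL tumors (median 66.2 CPM) and between 114 and 290 CPM in AB1 SC tumors (median 178 CPM), a log2 fold change of -1.46 with a standard error of 0.259 and an adjusted p of 0.000698. Of the 8 IPL mice 7 lay below every SC mouse, and replicate 5 alone reached into the SC range. Gbp4 followed, with 101 to 464 CPM in IPL (median 262) and 371 to 1037 CPM in SC (median 673), a log2 fold change of -1.44 with a standard error of 0.297 and an adjusted p of 0.00203. Gbp3 lay between 62.4 and 259 CPM in IPL (median 145) and between 189 and 485 CPM in SC (median 367), a log2 fold change of -1.32 with a standard error of 0.267 and an adjusted p of 0.00181. In both, 6 of 8 IPL mice were below every SC mouse.

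Gbp2, with the strongest signal per kilobase among the GBPs, lay between 138 and 481 CPM in IPL (median 279) and between 388 and 910 CPM in SC (median 697), a log2 fold change of -1.21 with a standard error of 0.211 and an adjusted p of 0.000605. Gbp7 ranged from 40.9 to 315 CPM in IPL (median 167) and from 222 to 507 CPM in SC (median 395), a log2 fold change of -1.24 with a standard error of 0.332 and an adjusted p of 0.0119. Gbp6 ranged from 37.9 to 204 CPM in IPL (median 114) and from 154 to 362 CPM in SC (median 245), a log2 fold change of -1.11 with a standard error of 0.318 and an adjusted p of 0.0174. Gbp6 and Gbp7 varied most among the IPL mice, with coefficients of variation of 56.2% and 58.7%, against 30.5% and 25.2% in SC.

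The regulatory IRGs had smaller differences. Igtp lay between 135 and 484 CPM in IPL (median 336) and between 340 and 670 CPM in SC (median 537), a log2 fold change of -0.66 with a standard error of 0.204 and an adjusted p of 0.0249. Irgm1 lay between 150 and 412 CPM in IPL (median 283) and between 292 and 566 CPM in SC (median 451), also a log2 fold change of -0.66 with a standard error of 0.186 and an adjusted p of 0.0155. Irgm2 lay between 105 and 379 CPM in IPL (median 244) and between 235 and 435 CPM in SC (median 345), and its log2 fold change of -0.43 (standard error 0.197) had an adjusted p of 0.13. For each of the 9 members the IPL and SC ranges overlapped, while 2.52% of all genes tested were lower in IPL without overlap. The Igtp call was lost without AB1 IPL replicate 2 (adjusted p = 0.0546) or AB1 SC replicate 5 (adjusted p = 0.0529). Without AB1 IPL replicates 2 and 4 together, 6 of 9 members were called, against 14% of all genes, and Igtp and Irgm1 were not. With no filter on low counts 6 of 9 were called, against 5.55% of all genes, and Gbp6 (adjusted p = 0.0531) and Igtp (adjusted p = 0.0568) were not.

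**Figure D1:**
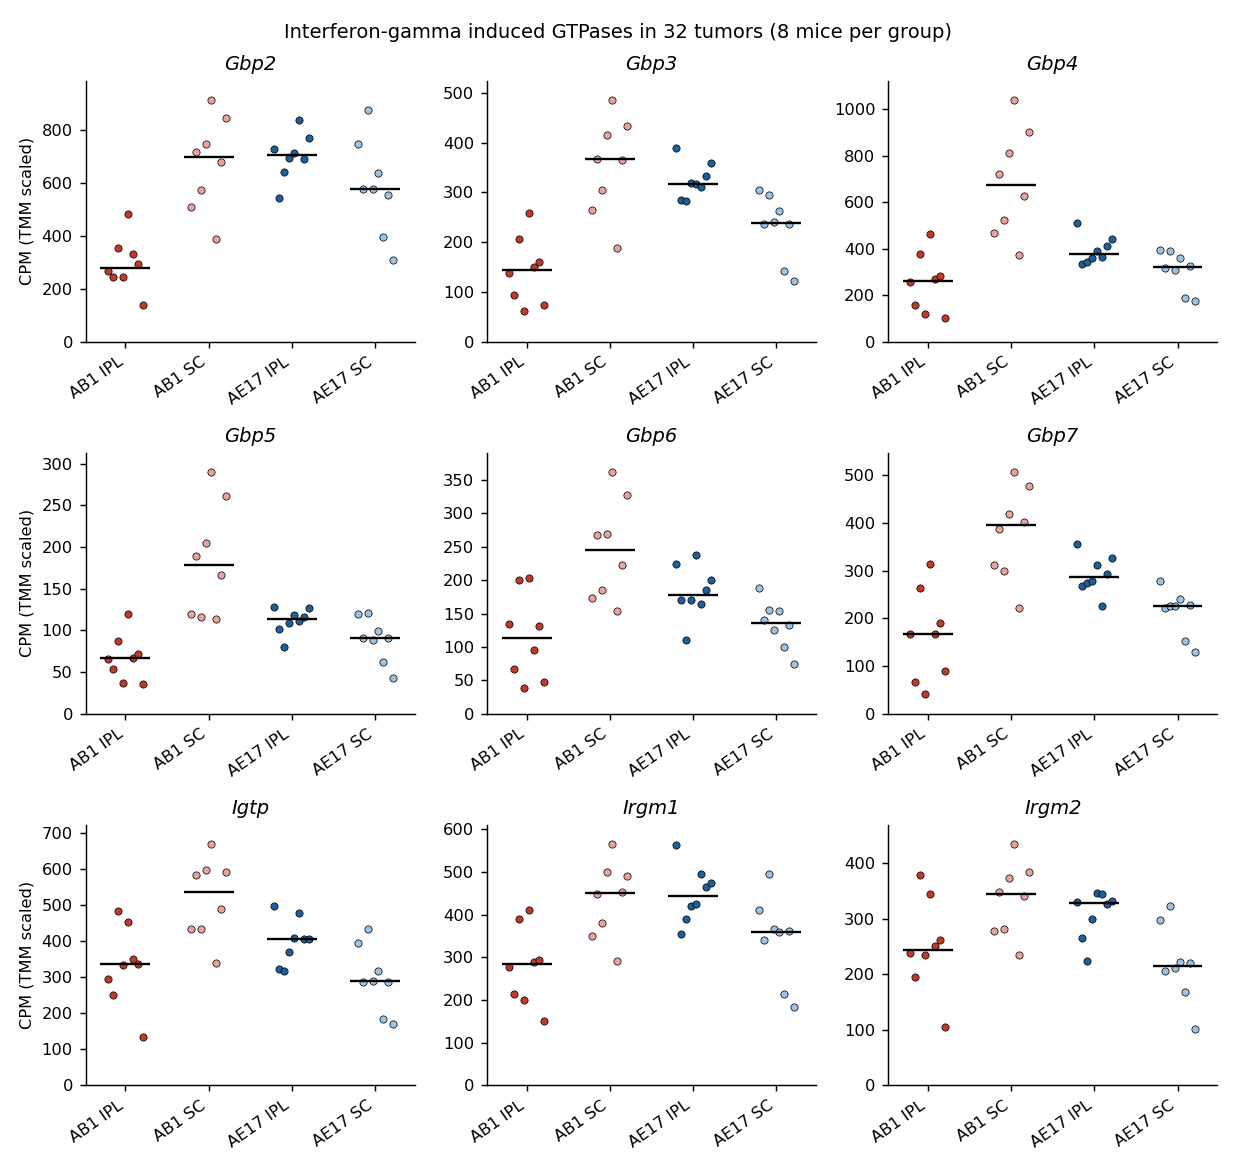
CPM (TMM scaled) of each of the 9 GTPase genes in each mouse, with 1 point per mouse, 8 mice per group and a bar at the group median. In all panels for GBP genes the AB1 IPL median is the lowest of the 4; for Gbp5 it is 66.2 CPM against 178 CPM in AB1 SC.

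The AB1 calls rested on mice from different lanes. With lane as a covariate in edgeR, 0 of 9 members passed an adjusted p of 0.05 and 5 of 9 had an unadjusted p under 0.05 (1.91% of all genes were called lower in this fit), while the log2 fold changes kept their sign, between -1.24 and -0.336. For Gbp5 the value moved from -1.46 to -1.22 (standard error 0.377, adjusted p = 0.102). Within lane 3, where 8 IPL mice met 2 SC mice, the log2 fold changes were between -1.29 and -0.382, again with 0 of 9 called and 4 of 9 at an unadjusted p under 0.05, against 0.994% of all genes called lower. In that lane every IPL mouse lay below both SC mice for 4 of 9 members, Gbp2, Gbp3, Gbp4 and Gbp5, as for 6.23% of all genes. Gbp5 was 154 CPM on average in the 2 SC mice of lane 3 and 192 CPM in the 6 of lane 2.

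The same question in the AE17 model gave differences of the opposite sign and smaller size. All 9 members had log2 fold changes above 0 in IPL against SC, between 0.27 (Gbp2) and 0.50 (Irgm2), as did 51% of the 14668 genes tested. Gbp7 was the 1 member of 9 that rose, against 2.6% of all genes, with 225 to 356 CPM in IPL (median 286) and 130 to 278 CPM in SC (median 225), a log2 fold change of 0.46 with a standard error of 0.131 and an adjusted p of 0.0491. Of the 8 IPL mice 5 were above every SC mouse. This call was lost when any 1 of 13 of the 16 mice was left out, with all 32 mice in 1 fit (adjusted p = 0.301) and with lane as a covariate (adjusted p = 0.285), a fit in which edgeR called 0 of 9 members and 5 had an unadjusted p under 0.05. At an adjusted p under 0.01 edgeR called 0 of 9 (7 at an unadjusted p under 0.05), against 0.511% of all genes. DESeq2 called 3 members and limma voom with quality weights called 6, all higher in IPL, in fits that called 3.09% and 14.1% of all genes higher.

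Gbp3 lay between 282 and 390 CPM in AE17 IPL (median 318) and between 123 and 304 CPM in AE17 SC (median 239), with 6 of 8 IPL mice above every SC mouse, a log2 fold change of 0.50 (standard error 0.155) and an adjusted p of 0.0672. Irgm2 lay between 224 and 346 CPM in IPL (median 329) and between 101 and 323 CPM in SC (median 215), with an adjusted p of 0.0913. Gbp2 was closest to no difference, with 543 to 837 CPM in IPL (median 702) and 309 to 874 CPM in SC (median 575), a log2 fold change of 0.27 with a standard error of 0.163 and an adjusted p of 0.319. Of the other 5 members, the log2 fold changes lay between 0.32 (Gbp5) and 0.45 (Gbp6), with adjusted p values between 0.109 and 0.241. Within lane 1, with 3 IPL and 8 SC mice, all 3 IPL mice lay above every SC mouse for 2 of 9 members, Gbp3 and Irgm2, as for 2.75% of all genes.

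The difference between the site effects of the models was tested directly. For all 9 members the site effect in AB1 was lower than in AE17 (interaction of model and site, edgeR), against 8.62% of the 15681 genes tested. Gbp3 and Gbp4 had the widest gaps, with log2 differences of -1.797 (standard error 0.322, adjusted p = 0.000339) and -1.795 (standard error 0.349, adjusted p = 0.000738). Irgm2 had the narrowest, at -0.91 (standard error 0.273, adjusted p = 0.0169). The 9 calls held when any 1 mouse was left out, and 8 held without the 4 libraries that stood apart (11.1% of all genes), Irgm2 being the exception (adjusted p = 0.0543). In the fit that held lane as a covariate the log2 differences were between -1.68 and -0.935, 0 of 9 passed the threshold (adjusted p between 0.0709 and 0.228, with 0.37% of all genes called lower) and 9 of 9 had an unadjusted p under 0.05.

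**Figure D2:**
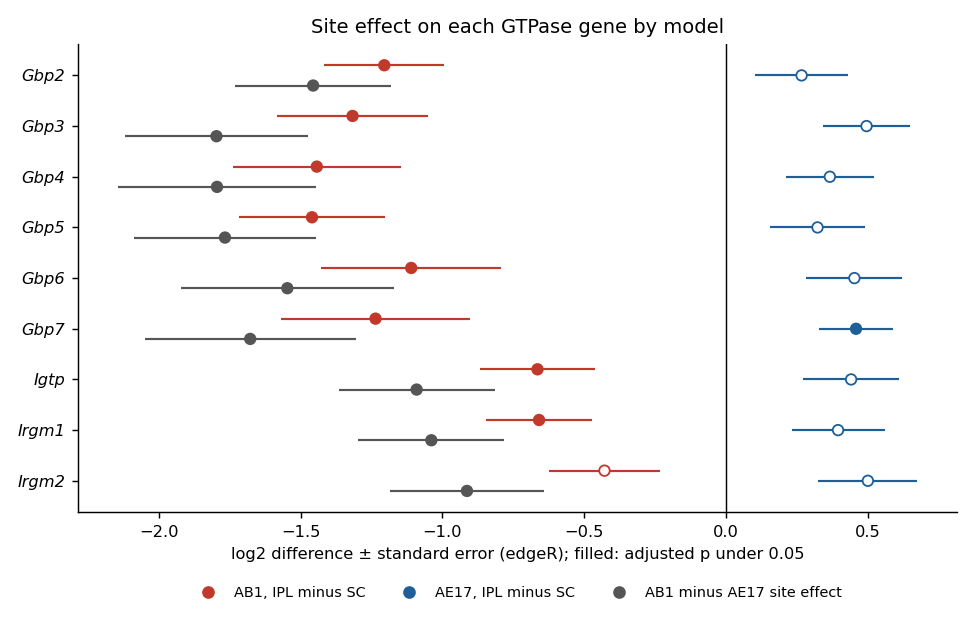
Log2 difference between IPL and SC tumors for each GTPase gene in AB1 (red) and AE17 (blue), and the AB1 minus AE17 difference of these effects (grey), with standard errors from edgeR and filled points where the adjusted p was under 0.05. All AB1 points lie left of 0 and all AE17 points right of it, from -1.46 for Gbp5 in AB1 to 0.50 for Irgm2 in AE17.

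Comparing the models at each site gave opposite orders. Among SC tumors, 7 of 9 members were higher in AB1 than in AE17, against 28.6% of all genes, and Gbp4 led with 681 ± 228 CPM in AB1 SC and 306 ± 83.5 CPM in AE17 SC (SD, n = 8 mice each), a log2 difference of 1.15 (standard error 0.248, adjusted p = 0.000183 from edgeR). Gbp2 (0.20, adjusted p = 0.389) and Irgm1 (0.35, adjusted p = 0.0999) did not pass. Among IPL tumors, 7 of 9 members were lower in AB1, against 31.8% of all genes. Gbp2 had the largest difference there, with 293 ± 100.0 CPM in AB1 IPL and 701 ± 86.7 CPM in AE17 IPL (SD, n = 8 mice each), a log2 difference of -1.26 (standard error 0.197, adjusted p = 1.8e-06 from edgeR). Gbp2 and Gbp3 had no overlap between these groups, as did 15.3% of all genes in this direction. Igtp (-0.28, adjusted p = 0.21) and Irgm2 (-0.30, adjusted p = 0.179) did not pass. Without the 4 libraries that stood apart 3 of 9 members were called in IPL, against 30.8% of all genes, and Gbp4, Gbp5, Gbp6 and Gbp7 were not. Adjusted for lane, 3 of 9 were called in SC and 1 of 9 in IPL, against 15.4% and 15.5% of all genes, so that the count in IPL was near the share of all genes. No lane held both models at the same site. The adjustment therefore rested on lane differences within AB1 SC and AE17 IPL, the groups that were split between lanes.

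By group mean, 5 members (Gbp3, Gbp4, Gbp5, Gbp6 and Gbp7) ran in the order AB1 SC, AE17 IPL, AE17 SC and AB1 IPL. Gbp2 and Irgm1 were highest in AE17 IPL, and Igtp and Irgm2 were lowest in AE17 SC. The highest group mean was between 1.53 (Irgm2) and 2.72 (Gbp5) times the lowest. In that first order AE17 IPL and AE17 SC stood next to each other, and of the 5 members Gbp7 alone differed between them past the threshold. Per kilobase of exon, mean levels in AB1 SC tumors were highest for Gbp2 (266 ± 69.2 CPM per kb) and Igtp (256 ± 54.9 CPM per kb) and lowest for Gbp5 (27.6 ± 10.1 CPM per kb, SD, n = 8).

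The balance of GBP to IRG transcripts was lowest in AB1 IPL tumors. The 6 GBP genes summed to between 0.701 and 1.52 times the 3 IRG genes in the 8 AB1 IPL mice (median 1.22), while the ratio lay between 1.66 and 2.21 in AB1 SC (median 1.92), 1.53 and 1.86 in AE17 IPL (median 1.77) and 1.64 and 1.95 in AE17 SC (median 1.84). Each AB1 IPL mouse lay below every mouse of the other groups. The ratio was formed after values were seen and carries no test. AB1 IPL replicate 4 had the lowest ratio, with 40.9 CPM of Gbp7, the lowest of its group, and 234 CPM of Irgm2, near the group median of 244.

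Single mice were high or low across most members. AB1 SC replicate 5 was the highest of its group for 9 of 9 members and replicate 6 the lowest for 9 of 9. AE17 SC replicate 8 was the lowest of its group for 9 of 9, and AB1 IPL replicate 5 the highest for 7 of 9. The summed GTPase level was 1305 CPM in AE17 SC replicate 8 and 3313 CPM in AE17 SC replicate 3, the extremes of that group. The T cell marker sum was 23.8 CPM in that lowest mouse, also the lowest of its group, 190 CPM in replicate 3 and highest, at 250 CPM, in replicate 1. In AB1 IPL the T cell sum was highest in replicate 4 (115 CPM), whose GTPase sum was 1306 CPM, and was 79.1 CPM in replicate 5, whose GTPase sum of 3050 CPM was the highest of the group.

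**Figure D3:**
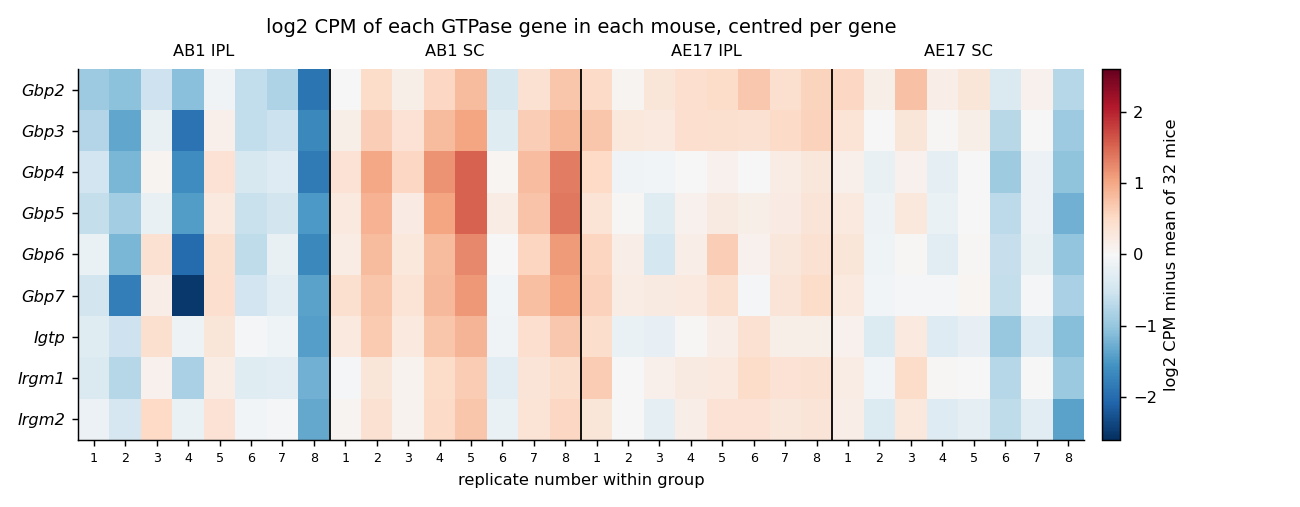
Log2 CPM of each GTPase gene in each of the 32 mice, minus the gene's mean over all mice, with red above and blue below that mean. AB1 IPL columns are mostly blue, AB1 SC columns mostly red, and single columns such as AE17 SC replicate 8 are blue for all 9 genes.

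After the 4 group means were removed, each member's log2 CPM followed the mean of the other members across the 32 mice, with Pearson's r between 0.842 (Gbp7) and 0.983 (Gbp4). The tightest pair was Gbp3 and Gbp4, on different chromosomes (r = 0.982), followed by Igtp and Irgm2 (r = 0.963), which share 162 exonic bases. The loosest was Igtp and Gbp7 (r = 0.618). Of 13436 other genes, the 8 most like the mean of the members were Gbp8 (r = 0.975), Gbp11 (0.973), Gbp10 (0.958), Gbp9 (0.95), Tnfsf10 (0.94), Xaf1 (0.935), Tgtp1 (0.927) and Gm43302 (0.925), while the 99th percentile of all these genes was 0.769. Within AE17 IPL, r was 0.414 for Xaf1, 0.68 for Tnfsf10 and between 0.809 and 0.924 for the rest, against 0.947 to 0.99 in the other groups. Gm43302 holds 65% of the 50-base stretches of Gbp6, and Gbp4 shares exonic bases with Gbp8 and Gbp9. The part of shared reads in these r values was not tested. Tnfsf10 encodes the death ligand TRAIL and Xaf1 an antagonist of XIAP. All points share libraries and scaling, and r is given as a description over 32 mice.

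Of 13 other IFN-inducible GTPases with a row, 9 were lower in AB1 IPL, with a median log2 fold change of -1 over the list. Adjusted for lane, edgeR called 0 of the 13, with 7 at an unadjusted p under 0.05. Without that adjustment, Tgtp1, Tgtp2, Gm12185 and Gm5431 were not called. Gbp2b, a GBP paralog beside Gbp2, fell by 1.49 on the log2 scale in AB1 (adjusted p = 0.000825), and Gbp8 by 1.45 (adjusted p = 0.00129). In AE17 edgeR called 0 of 13, with 9 at an unadjusted p under 0.05, DESeq2 called 3 and limma voom 10, all higher in IPL. Gbp2b also stood out between the models, at 678 ± 193 CPM in AB1 SC and 11.5 ± 6.8 CPM in AE17 SC (SD, n = 8), a log2 difference of 5.88 (adjusted p = 1.03e-14 from edgeR).

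Of the genes that carry the interferon-gamma signal, Ifng and Jak2 were not analysed here. Of 13 genes of the receptor and signaling list, 9 were lower in AB1 IPL, with a median log2 fold change of -0.43, and 0 with lane as a covariate (6 at an unadjusted p under 0.05). Irf1 fell by 0.71 (adjusted p = 0.00255), Ifngr1 by 0.54 (adjusted p = 0.000792) and Ifngr2 by 0.27 (adjusted p = 0.031) in AB1. In AE17 edgeR called 0 of 13, with 4 at an unadjusted p under 0.05, DESeq2 called 2 and limma voom 5, all higher in IPL.

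Upstream of interferon-gamma, 10 of 11 tested genes for its inducers and their receptors were lower in AB1 IPL, with a median log2 fold change of -1.21 and Il18 as the exception, and 5 with lane as a covariate. Il18r1 and Il12rb2, receptor chains for IL-18 and IL-12, fell by 2.03 each (adjusted p = 5.07e-05 and 5.18e-05). Stat4, which carries the IL-12 signal, had a log2 fold change of -1.795 (adjusted p = 1.43e-05). Eomes, a transcription factor of cytotoxic lymphocytes, fell by 1.63 (adjusted p = 1.32e-05). In AE17, Il12b alone of the list was called, at -1.07 (adjusted p = 0.0467).

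Of 23 other interferon-gamma targets, 22 were lower in AB1 IPL, with a median log2 fold change of -1.11 and Fcgr1 as the exception. Nos2, the inducible nitric oxide synthase of macrophages, fell by 2.33 (adjusted p = 0.000628), Ccl5 by 2.02 (adjusted p = 0.000173), Ubd by 1.94 (adjusted p = 1.43e-05), Serpina3g by 1.91 (adjusted p = 3.35e-05) and Ido1 by 1.73 (adjusted p = 0.00475). In AE17 edgeR called 0 of 23, with 11 at an unadjusted p under 0.05, DESeq2 called 4 and limma voom 10, all higher in IPL. Adjusted for lane, 7 of the 23 were called lower in AB1 and the median over the 23 was -1.10.

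Type I interferon response genes stood the other way from the GTPases between the models in SC tumors. Of 18, 11 were lower in AB1 IPL (median log2 fold change -0.61), or 0 with lane as a covariate (4 at an unadjusted p under 0.05), and 15 were lower in AB1 than in AE17 among SC tumors (median -1.47), against 29.7% of all genes, where 7 of 9 members were higher (median 0.81). Among IPL tumors 18 of 18 were lower in AB1 (median -2.55), the direction of 7 of 9 members there. In AE17, 1 of 18 was higher in IPL and 16 had an unadjusted p under 0.05. Mx1, an antiviral GTPase, had 33.7 ± 9.41 CPM in AB1 SC and 152 ± 54.4 CPM in AE17 SC (SD, n = 8), a log2 difference of -2.17 (adjusted p = 5.53e-10 from edgeR). Of partners of the GTPases, among 12 autophagy conjugation genes 5 rose and 1 fell in AB1 IPL, where 12.3% of all genes rose, with Map1lc3a (LC3A) at 0.95 (adjusted p = 0.000152). Adjusted for lane, 1 of the 12 rose, against 0.731% of all genes. Of 8 skeletal muscle markers 7 were also higher in AB1 IPL without that adjustment, and the part of muscle RNA in the autophagy genes was not tested. Among 7 inflammasome and cell death genes 4 were lower, or 0 with lane as a covariate in edgeR (2 at an unadjusted p under 0.05), with Il1b at -0.82 (adjusted p = 0.0185) and Casp4, the sensor that GBPs help to activate, at -0.66 (adjusted p = 0.0101).

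**Figure D4:**
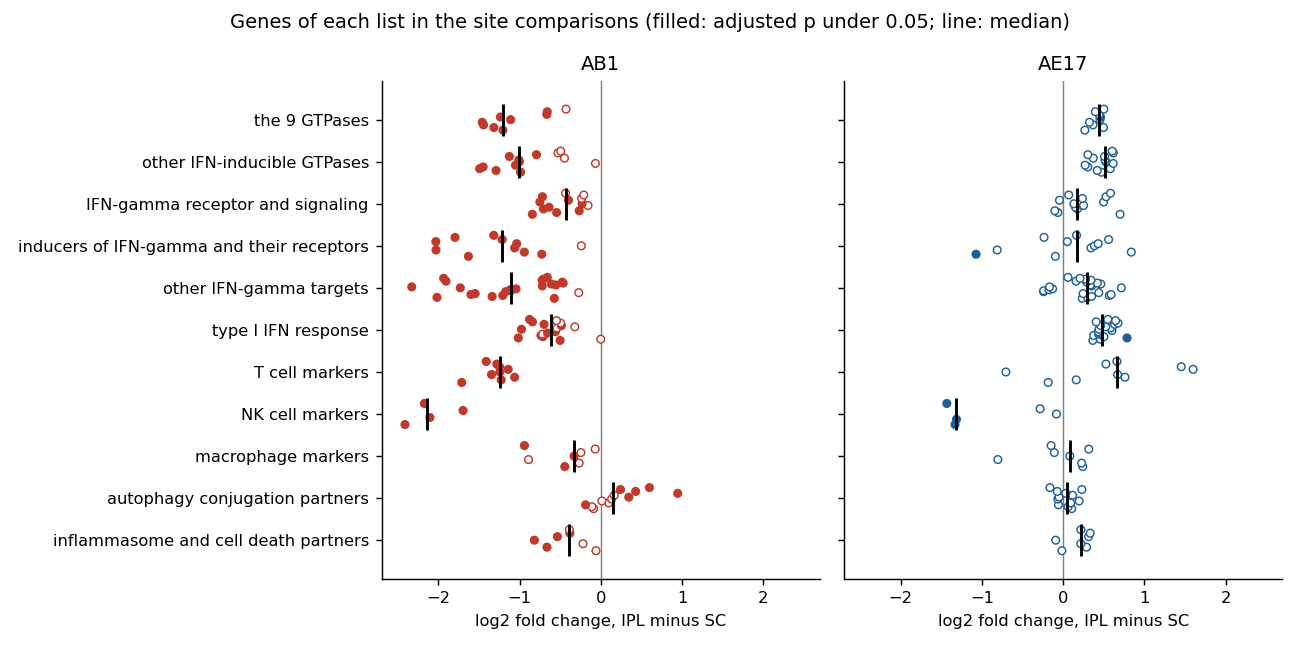
Log2 fold change between IPL and SC tumors in AB1 (left) and AE17 (right) for the genes of each list, 1 point per gene, filled where the adjusted p was under 0.05, with a line at the list's median. The interferon lists have medians left of 0 in AB1, at -1.21 for the 9 GTPases, and right of 0 in AE17, at 0.44 for the 9.

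T cell and NK cell markers were also lower in AB1 IPL tumors. T cell markers summed to between 25 and 115 CPM in AB1 IPL mice (median 72.1) and to between 123 and 241 CPM in AB1 SC mice (median 168). None was at 0 in all mice of a group. Of the 9 markers, 9 were lower, against 10.7% of all genes, and 2 with lane as a covariate, against 1.91%. Cd2 had a log2 fold change of -1.71 (adjusted p = 4.15e-05 from edgeR). NK cell markers, of which 5 of 8 had a row, summed to between 16 and 42.7 CPM in AB1 IPL and 62 and 145 CPM in AB1 SC. Of the tested markers 4 of 4 were lower, against 10.7% of all genes. Of the cell type markers, counts adjusted for lane are given here for T cells only, and lane was partly tied to the groups. In AE17 the NK sum was between 23.8 and 53.1 CPM in IPL and 13.6 and 90.3 CPM in SC, with 3 of 5 markers lower in IPL, against 3.13% of all genes. The T cell sum was between 91.9 and 238 CPM in IPL (median 176) and 23.8 and 250 CPM in SC (median 83.8). Of the 9 T cell markers edgeR called 0 in AE17, with 2 at an unadjusted p under 0.05, DESeq2 called 2 higher, and limma voom called 5 higher and 1 lower. B cell markers in AE17 summed to a median of 86.4 CPM in IPL and 38.7 CPM in SC, with 2 of 3 tested markers higher, against 2.6% of all genes. Fewer T or NK cells and less RNA per cell cannot be told apart in whole tumors, nor can more B cells and more RNA per cell. The part of these cells in the GTPase levels was not tested.

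Skeletal muscle markers were highest in AB1 IPL tumors, between 110 and 4522 CPM (median 2142), against 54.8 to 508 CPM in AB1 SC (median 310). AB1 IPL replicate 2, with the 110 CPM, had 1344 CPM of GTPase genes in sum, while replicates 3 and 4, with 4522 and 4343 CPM of muscle markers, had 2741 and 1306 CPM. Every AB1 SC mouse except replicates 1 and 6 (2905 and 2306 CPM of GTPase genes) lay above 3050 CPM, the highest AB1 IPL sum, and the part of muscle RNA in the difference was not tested. Macrophage markers summed to a median of 1588 CPM in AB1 IPL and 2244 CPM in AB1 SC, with 3 of 7 tested markers lower. Of 7 dendritic cell markers 3 were lower, while 10.7% of all genes were lower. Fibroblast markers summed to a median of 18994 CPM in AB1 IPL and 11467 CPM in AB1 SC, with 3 of 4 tested markers higher, against 12.3% of all genes. B cell markers were higher for 3 of 4 tested and adipocyte markers for 2 of 4, against the same 12.3%. The marker counts in this paragraph were not adjusted for lane, and the part of these cells in the GTPase levels was not tested.

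**Figure D5:**
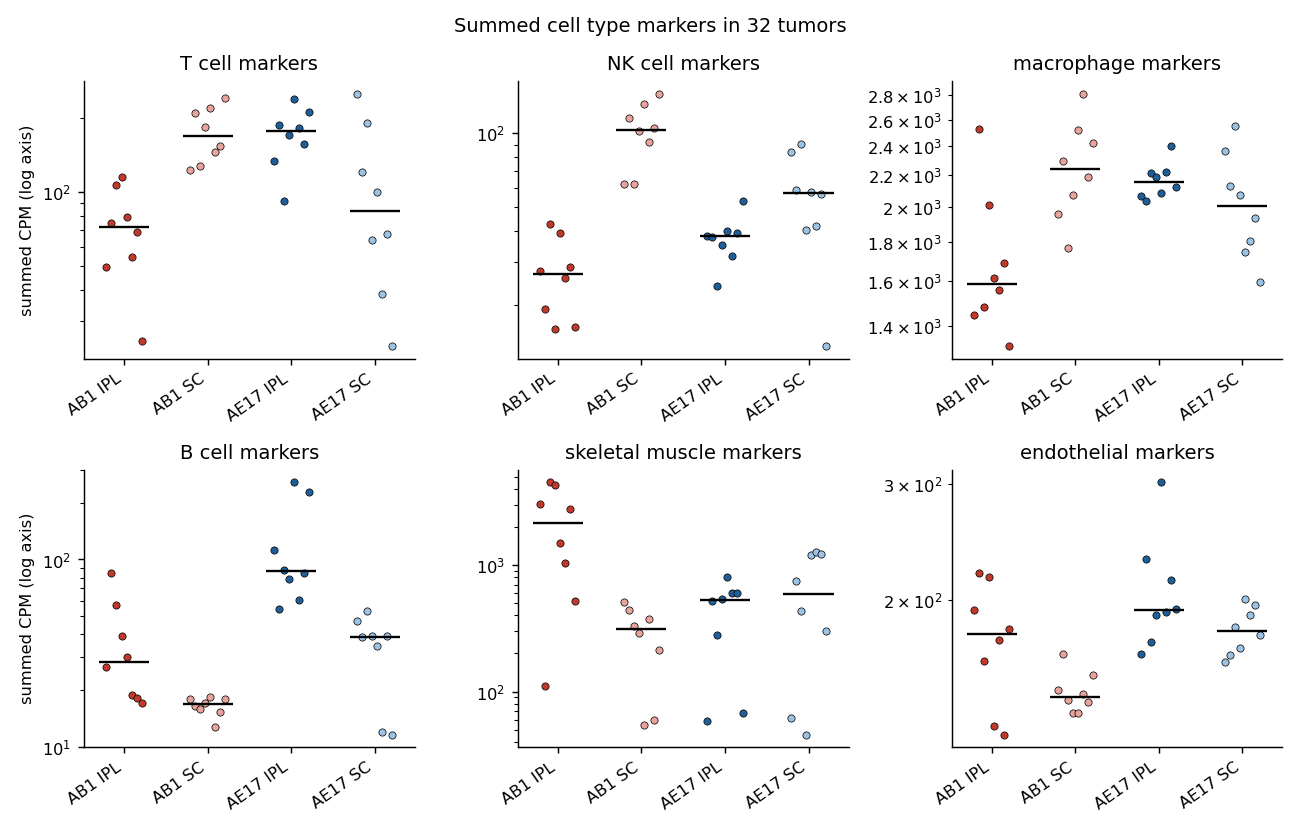
Summed CPM of cell type markers in each mouse, on log axes, with 1 point per mouse and a bar at the group median. T cell and NK cell sums of all AB1 IPL mice lie below those of all AB1 SC mice (at most 115 against at least 123 CPM for T cells), and skeletal muscle sums are highest in AB1 IPL.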

How the data were processed

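RNA of whole tumors, with surrounding tissue and lung removed, was sequenced as 50 base single reads. Per the methods and the submitters' processing notes, the authors demultiplexed reads with bcl2fastq 1.8.4, aligned them with HISAT2 2.0.4 to a mouse build named there as mm11, and deposited raw counts per gene from SummerizeOverlaps. The strand setting and annotation release are not given in the sources used here. Of 39676 gene identifiers, 36719 matched GENCODE M21 (GRCm38) with their version, among them the 9 members, whose positions were taken from it, and RefSeq supplied promoters.

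Genes were filtered with filterByExpr, scaled with TMM and tested with edgeR 4.0.16 (quasi-likelihood, robust, R 4.3.3) over all genes, with Benjamini-Hochberg adjustment and a threshold of 0.05. Site effects were fitted in the 16 mice of each model, and the interaction and model comparisons in 1 fit of 32 mice. Log2 CPM used a prior count of 2. Alternatives were DESeq2 1.42.0, limma 3.58.1 (voom with quality weights), other scalings and filters, lane, replicate number and left-out mice. The test was also run on simulated counts with known changes. The tests and their standard errors take in the spread between mice, and each SD is over the 8 mice of a group. The floor of 3 counts covers counting error only.

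The members and lists were chosen with earlier results of these data known. Named were all members, the receptor chains, Irf1, up to 5 genes of each list with the largest called fold change, up to 2 markers of each cell type and the 8 genes most like the members (mean of at least 1 CPM). Genes that a list did not call were named after their values were seen, as were Il12b and the GBP to IRG ratio. Replicate numbers did not pair the mice: same-numbered mice had a mean correlation of -0.152 in AB1 and 0.0918 in AE17. No 2 mice of a group had counts that agreed within sampling noise (112 pairs). One gene of the signaling list is not reported here by name.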

Additional observations from a re-analysis of the deposited data

Results flagged for a closer look

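The site effect differed between the models for each of the 9 GTPase genes, by the interaction test in edgeR. The AB1 minus AE17 difference of the log2 fold changes was -1.456 for Gbp2, -1.797 for Gbp3, -1.795 for Gbp4, -1.767 for Gbp5, -1.547 for Gbp6, -1.678 for Gbp7, -1.091 for Igtp, -1.039 for Irgm1 and -0.9134 for Irgm2. With lane as a covariate these differences had adjusted p values between 0.0709 and 0.228, and model, strain, cell number and lane cannot be told apart fully in this design. No mouse stood apart from its group by Dixon's test in any of 36 combinations of gene and group.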

How the results depend on the processing

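No member changed sign under any alternative. In AB1, 8 of 9 members were called, 4 at an adjusted p under 0.01, 6 with no filter, and 0 with lane as a covariate or in lane 3 only. In AE17, 1 of 9 was called, and 0 at an adjusted p under 0.01, with DESeq2's size factors, with total counts or with no filter (7 of 9 at an unadjusted p under 0.05 in each), 0 with lane as a covariate (5 unadjusted), with 32 mice in 1 fit (4), in lane 1 only (3) and without the libraries that stood apart (4), but 3 with DESeq2 and 6 with limma voom. The interaction had 9 called and 0 with lane as a covariate. Model comparisons had 7 called in SC and 3 with lane, and 7 in IPL, 1 with lane 5 with no filter or with limma voom (Gbp4 and Gbp6 lost in both) and 3 without the libraries that stood apart, a setting chosen after seeing the data. With lane as a covariate, the number of genes called over the whole table fell to 386 in AB1, 1 in AE17 and 117 in the interaction; lane overlaps the groups, and the cause was not tested.

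Leaving out 1 mouse at a time gave 7 to 8 calls in AB1, 0 to 4 in AE17, 9 to 9 in the interaction, 7 to 8 in SC and 5 to 7 in IPL. Over all genes, these fits called 1346 to 1943 lower in AB1, 119 to 1026 higher in AE17 and 1140 to 1578 lower in the interaction. In the model comparisons they called 4296 to 4617 higher in SC and 4711 to 5015 lower in IPL. In AE17, 4 members were called without AE17 SC replicate 1 or replicate 3. In these fits 1026 of 14776 and 746 of 14781 genes were called higher, against 381 of 14668 with no mouse left out. With the replicate block, 7 members were called in AB1, where Igtp was lost (adjusted p = 0.0558 from edgeR), and 1, 9, 7 and 7 in the other comparisons. The block fits called 1183 of 14645 genes lower in AB1 and 324 of 14668 higher in AE17. Of 15681 genes they called 1253 lower in the interaction, 4416 higher in SC and 4938 lower in IPL. Of same-numbered pairs, 0 of 8 in AB1 and 2 of 8 in AE17 correlated best with their own number. The planned tests on Ifng were not run, and Ifng was not analysed here. Depth did not limit the members, whose lowest count was 680.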
